A study of Arabidopsis thaliana with 12 samples.

Results

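Transcript levels in the mutant asr3-1 were compared with those of wild type (WT, Col-0) in whole Arabidopsis thaliana seedlings that had received flg22, over 4 of the 12 libraries of the series: asr3-1 with flg22 in repeats 1 and 2, and WT with flg22 in repeats 1 and 2. All seedlings were 10 days old, grown on plates, moved to water overnight and then given flg22 for 30 min or left without it. The libraries were chosen by their labels, and the asr3-1 library of each repeat was paired with the WT library of the same repeat. The other 8 libraries are asr3-1 and WT without flg22 and, with and without flg22, OX9, a line in which the 35S promoter, active in most tissues, drives ASR3 with an HA tag. Each group has 2 libraries, 1 per independent repeat, and RNA of 2 biological replicates was pooled for each, so spreads and p-values are between pools. For flg22 the design text gives 100 nM and the treatment protocol 100 mM. The labels do not describe the lesion of asr3-1, and a single mutant line was used.

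The peptide flg22 is a stretch of bacterial flagellin. In Arabidopsis it binds the receptor kinase FLS2, which then joins its coreceptor BAK1, and cytoplasmic kinases such as BIK1, calcium influx and MAP kinase cascades carry the signal to the nucleus, where WRKY and other factors switch on a first wave of genes within minutes. ASR3 is a trihelix factor, a plant-specific DNA-binding family, and is described as a repressor of flg22-induced genes that the MAP kinase MPK4 phosphorylates. The comparison asks how the transcriptome of flg22-treated seedlings differs where ASR3 is mutated.

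Values are FPKM, fragment numbers divided by transcript length and by library size, and differences are asr3-1 minus WT on log2(FPKM + 1), a scale that understates differences of low genes. Of the 33197 gene identifiers used, 20753 were kept because 2 or more libraries of the 12 reached 1 FPKM. Exactly 2 libraries reached that level for 367 of the kept genes, and 1 library reached it for 629 of those left out. The 4 libraries each held 19398 to 19569 genes at 1 FPKM or more. Read numbers cannot be taken from FPKM directly, and the commonest lowest values put the 4 libraries at a rough 7500000 to 9400000 reads. The repeats differed strongly from each other: the metallothionein gene MT1A took 1.49% of summed FPKM in asr3-1 and 1.78% in WT in repeat 1, and 16.07% in asr3-1 and 15.81% in WT in repeat 2. The tissue label was checked with markers. The 35 photosynthesis genes, abundant in green tissue, summed to 142831 and 121702 FPKM in asr3-1 and to 133897 and 127657 FPKM in WT, in repeats 1 and 2, and the 29 root genes to 698.8 and 877.3 FPKM in asr3-1 and to 718.4 and 797.5 FPKM in WT. No marker of either list was at 0 in any of the 4 libraries. In such whole-seedling RNA, fewer cells of a type and less RNA per cell cannot be told apart.

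ASR3 (AT2G33550, chromosome 2, 14209982 to 14211693 in TAIR10.1, minus strand, 3 exons) was read first as a check of the labels. It stood at 2.53 and 3.44 FPKM in asr3-1 with flg22, against 8.53 and 6.34 FPKM in WT with flg22. Both mutant libraries were below both WT libraries, as was so for 7.25% of all genes. The difference was -1.08 on the log2 scale (SE 0.33), which did not pass the limma test after Benjamini-Hochberg adjustment (adjusted p = 0.77). Means were 2.99 ± 0.646 FPKM in asr3-1 and 7.44 ± 1.55 FPKM in WT (SD, n = 2 each). Without flg22 the values were 6.58 and 2.5 FPKM in asr3-1 and 9.59 and 6.24 FPKM in WT. Transcript from this gene was therefore still counted in the mutant. Of the 9 trihelix genes tested, ASR3 included, 2 were higher and 2 lower in asr3-1 in both repeats, with a median difference of -0.03. These shares of 22.2% each lie near the 27.3% higher and 23.7% lower of all genes. GT2, a light-responsive founder of the family, had 2.83 and 1.51 FPKM in asr3-1, against 2.19 and 1.1 FPKM in WT.

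With flg22, no gene differed past the test between the genotypes: 0 were higher in asr3-1 and 0 lower (0% of 20753 in each direction) in limma with the repeat as a block within each treatment, at an adjusted p under 0.05. At an unadjusted p under 0.05 there were 620 genes higher (2.99%) and 642 lower (3.09%), and the smallest adjusted p was 0.058. In data simulated from these libraries, 84% of the rises and 89% of the falls of 2-fold were found by this model, with 16 false calls. Of those of 1.5-fold, 19% and 10% were found. The simulation drew its noise from this same block model and changed only genes above about 5 FPKM. These shares hold only where the real data follow that model. A model without the block found 0% of the 2-fold changes in either direction, in data simulated with a block. From the 0 calls it gave on the real data, nothing is concluded on differences of that size. Leaving out single libraries gave calls in 2 cases. Without WT with flg22 of repeat 2, 2 genes were higher, the microRNA precursor MIR825 and AT3G13240, each at 0 FPKM in every library of the comparison but asr3-1 of repeat 1. Without asr3-1 with flg22 of repeat 2, 2 genes were higher and 6 lower. The higher ones were the small nucleolar RNA AT3G50825 and the iron transporter gene IRT1, which had 29.6 and 3.96 FPKM in asr3-1 and 5.61 and 21.3 FPKM in WT. As the plot of one repeat against the other shows, gene-by-gene differences were not shared across genes between the repeats: Pearson's r over the 20753 genes was 0.02 and Spearman's rho 0.04, a description across genes that share libraries.

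**Figure D1:**
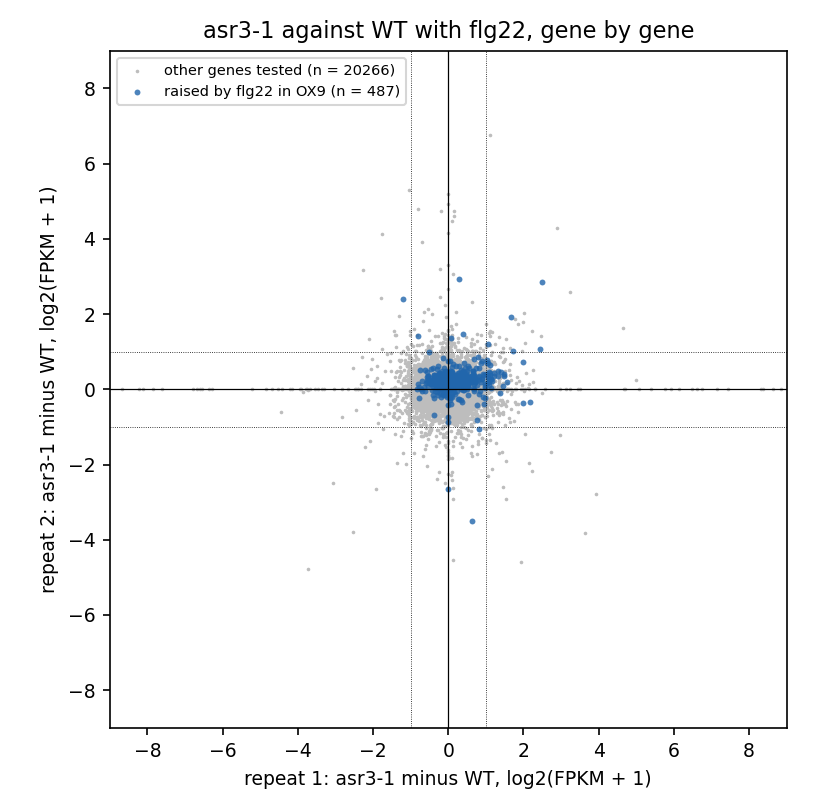
Difference of each gene between asr3-1 and WT with flg22 on log2(FPKM + 1), repeat 1 on the horizontal axis and repeat 2 on the vertical axis; each point is a gene, blue points are the 487 genes raised by flg22 in OX9, and dotted lines mark 2-fold. The cloud has no slope (r = 0.02), and 31 genes lie beyond 2-fold in the upper right corner against 13 in the lower left.

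A difference of at least 2-fold in both repeats was shown by 31 genes in the higher direction (0.149%) and 13 in the lower direction (0.0626%). Of these, 18 and 6 had a mean of at least 5 FPKM over the 4 libraries. Taken singly, repeat 1 had 297 genes at least 2-fold higher and 230 lower, and repeat 2 had 170 and 131. Of the 297 genes 2-fold higher in repeat 1, 48.8% were above 0 in repeat 2, and of all genes 50.5% were. Of the 230 genes 2-fold lower in repeat 1, 33.5% were below 0 in repeat 2, and of all genes 48.1% were. Their median in repeat 2 was 0.0. Genes with equal values in both libraries of repeat 2, such as 0 FPKM in each, count as neither above nor below. The lower share is therefore not read as a reversal.

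The genes with the clearest levels among the 31 included a run of neighbouring genes for small secreted proteins of the lipid-transfer type. AZI1, a lipid-transfer-like protein needed for the priming of systemic immunity, had 772.1 and 541.6 FPKM in asr3-1, against 246.1 and 250.7 FPKM in WT. Both mutant libraries were more than 2-fold above both WT libraries (log2 difference 1.38, SE 0.47, limma adjusted p = 0.81). EARLI1, its close relative, had 253.6 and 223.0 FPKM in asr3-1, against 64.8 and 110.5 FPKM in WT (1.48, SE 0.49), and overlaps a gene on the other strand. AT4G12500 of the same cluster had 19.3 and 34.9 FPKM in asr3-1, against 9.12 and 9.74 FPKM in WT (1.37, SE 0.38). In each of the 3 genes the groups did not overlap, which was so in the higher direction for 6.69% of all genes. All 31 were picked for a 2-fold difference within both pairs of these same libraries, which favours such separation, so it is no separate support. AZI1 and EARLI1 lie on chromosome 4 between 7401087 and 7406994 (TAIR10.1), each with 1 exon, on the minus strand. The sequences of the 3 genes resemble one another, so reads may have been shared between them. Without flg22 the picture was less even: AZI1 had 167.7 and 123.2 FPKM in asr3-1 and 64.0 and 106.4 FPKM in WT, while EARLI1 had 82.0 and 20.9 FPKM in asr3-1 and 49.9 and 21.5 FPKM in WT.

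The 250 bases before the starts of AZI1 and EARLI1, and before that of FRK1, a receptor kinase gene that is a classic flg22 marker, are shown because this pair stood high together in the mutant and because WRKY factors bind the W-box core TTGAC. Positions are chr4:7401952-7402201 for AZI1, chr4:7406995-7407244 for EARLI1 and chr2:8329945-8330194 for FRK1, all on the minus strand of TAIR10.1 (RefSeq), printed 5′ to 3′ along the gene. Capitals mark TTGAC or its reverse complement.
AZI1: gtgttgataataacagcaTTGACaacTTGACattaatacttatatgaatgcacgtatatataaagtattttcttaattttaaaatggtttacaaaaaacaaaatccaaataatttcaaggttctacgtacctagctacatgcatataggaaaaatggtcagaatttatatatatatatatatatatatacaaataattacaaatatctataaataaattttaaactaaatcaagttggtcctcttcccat
EARLI1: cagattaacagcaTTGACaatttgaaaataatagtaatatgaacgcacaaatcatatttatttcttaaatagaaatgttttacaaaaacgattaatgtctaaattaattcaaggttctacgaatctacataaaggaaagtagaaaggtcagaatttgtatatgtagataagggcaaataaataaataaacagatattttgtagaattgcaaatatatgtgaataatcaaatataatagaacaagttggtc
FRK1: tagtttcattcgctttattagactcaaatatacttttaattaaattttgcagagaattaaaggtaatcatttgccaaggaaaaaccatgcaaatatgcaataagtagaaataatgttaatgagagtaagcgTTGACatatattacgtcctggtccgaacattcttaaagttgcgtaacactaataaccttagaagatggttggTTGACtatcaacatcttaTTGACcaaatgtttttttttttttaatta
The core was found 2 times before AZI1, 1 time before EARLI1 and 3 times before FRK1. The letters GGTTAA and GGTAAA, which are forms of the GT element that trihelix factors are known for, were in none of the 3 windows on either strand. Other forms of this element were not searched for, so the windows are not shown to lack it. Over all 20685 windows of this length, 45.4% held TTGAC and 15% held GGTTAA on either strand, and none of these motifs contains another. Such matches describe letters and not bound sites.

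The chitinase family gene AT2G43620, another of the 31, had 333.8 and 190.9 FPKM in asr3-1, against 101.2 and 93.0 FPKM in WT, with no overlap (log2 1.37, SE 0.39, limma adjusted p = 0.74). AT4G22470 had 103.5 and 108.9 FPKM in asr3-1, against 18.3 and 51.0 FPKM in WT (1.76, SE 0.43), and overlaps a gene on the other strand. AT1G51913 had 42.9 and 111.3 FPKM in asr3-1, against 12.7 and 28.8 FPKM in WT (1.8, SE 0.39). These 3 genes were low in seedlings without flg22, at 2.08 to 11.4 FPKM in asr3-1 and 1.19 to 6.74 FPKM in WT. Yet asr3-1 was above WT there in repeat 1 for each. The untreated log2 differences in repeats 1 and 2 were 1.28 and 0.07 for AT2G43620 and 0.72 and 0.39 for AT4G22470. For AT1G51913 they were 1.33 and -0.11. AT5G44575 had 87.5 and 21.0 FPKM in asr3-1, against 20.5 and 8.43 FPKM in WT (1.63, SE 0.38). AT2G39520 had 119.5 and 2.68 FPKM in asr3-1, against 34.1 and 0 FPKM in WT, and its adjusted p of 0.058 is among the smallest although repeat 1 holds nearly all of its signal. This gene, too, overlaps one on the other strand. RTFL14, a small peptide gene of the DEVIL family, had 49.6 and 107.3 FPKM in asr3-1, against 22.3 and 0 FPKM in WT. Without flg22 it was at 0 in both asr3-1 libraries and had 66.1 and 0 FPKM in WT, and in OX9 with flg22 it had 36.5 and 0 FPKM. The spliceosomal RNA U12 (AT1G61275) had 6.43 and 18.5 FPKM in asr3-1 and was listed at 0 in both WT libraries. Without flg22 it likewise had 6.63 and 13.8 FPKM in asr3-1 and 0 in both WT libraries. In OX9 it had 25.3 and 0 FPKM with flg22 and 12.3 and 47.3 FPKM without. Its presence thus did not separate the mutant from the overexpressor.

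**Figure D2:**
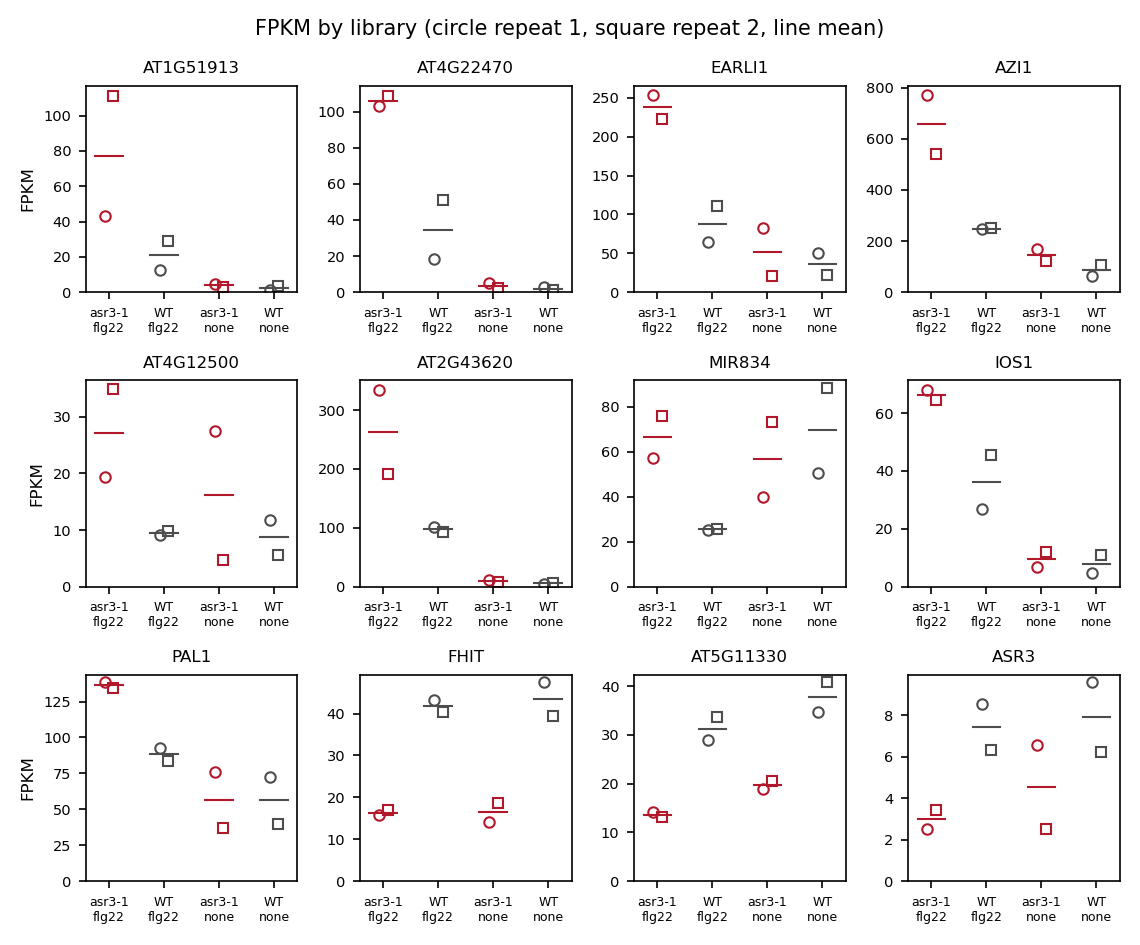
FPKM of 12 genes in each library of asr3-1 (red) and WT (grey), with flg22 and without it (none), on linear axes from 0; circles are repeat 1, squares repeat 2, and lines group means. AZI1, AT2G43620 and IOS1 are higher in asr3-1 with flg22 in both repeats, while FHIT and AT5G11330 are lower in asr3-1 with flg22 and without it alike.

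MicroRNA precursors were among the genes with the smallest p. MIR834 (chromosome 5, 2641426 to 2641674, minus strand) had 57.5 and 75.8 FPKM in asr3-1, against 25.1 and 25.8 FPKM in WT (log2 1.34, SE 0.15, limma adjusted p = 0.058). Both mutant libraries were more than 2-fold above both WT libraries. Without flg22 it had 40.0 and 73.4 FPKM in asr3-1, against 50.7 and 88.6 FPKM in WT, so the mutant was the lower one in both repeats. It lies inside AT5G08230 (HULK1) on the same strand, and reads of the pair cannot be told apart. MIR848 was listed at 0 in both asr3-1 libraries and had 4.79 and 12.8 FPKM in WT, and it was at 0 in all libraries without flg22. It overlaps AT5G13890 on the same strand. The values of both loci may thus hold reads of the overlapping gene, and they say nothing of the mature microRNA. The mature sequences are given to identify them, in the DNA letters of the genome (chr5:2641477-2641497 and chr5:4479448-4479469, minus strand, TAIR10.1, RefSeq), with the seed, bases 2 to 8, in capitals.
MIR834: tGGTAGCAgtagcggtggtaa
MIR848: tGACATGGgactgcctaagcta
The seeds of the pair differ.

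On the lower side, the rule named 6 genes. FHIT, a nucleotide hydrolase of the fragile histidine triad family, had 15.8 and 16.9 FPKM in asr3-1, against 43.3 and 40.3 FPKM in WT (log2 -1.30, SE 0.19, limma adjusted p = 0.23). Without flg22 it had 14.2 and 18.7 FPKM in asr3-1, against 47.5 and 39.3 FPKM in WT, so the difference was of like size with and without the treatment. Its groups did not overlap, as 7.25% of all genes did not in this direction. The gene was picked for its 2-fold difference in these same libraries, so this is no separate support. AT5G24240 had 1.03 and 0.539 FPKM in asr3-1, against 26.1 and 40.9 FPKM in WT. Without flg22 it had 0.653 and 0.18 FPKM in asr3-1, against 14.1 and 7.76 FPKM in WT. In OX9 it had 19.7 and 0.323 FPKM with flg22 and 8.39 and 0.189 FPKM without. Its low level thus did not separate the mutant from the overexpressor in repeat 2. FHIT and AT5G24240 each overlap a gene on the other strand. AT5G35940 stood low in asr3-1 in both conditions, with 3.98 and 2.23 FPKM in asr3-1 and 10.4 and 9.36 FPKM in WT with flg22. CPL3, a small MYB-type protein of epidermal cell patterning, had 6.18 and 5.04 FPKM in asr3-1, against 16.2 and 13.4 FPKM in WT. AT5G26220, the glutathione-degrading enzyme GGCT2;1, had 18.1 and 1.15 FPKM in asr3-1, against 48.4 and 7.32 FPKM in WT. For AT5G63270 the values were 5.75 and 2.37 FPKM in asr3-1 and 13.7 and 12.2 FPKM in WT.

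Differences of at least 2-fold with flg22 were set beside those without it. Of the 31 higher genes, 8 were also higher in both untreated pairs and 7 were lower in both, and their median difference was 1.44 with flg22 and 0.11 without. Of the 13 lower genes, 7 were also lower in both untreated pairs and 1 was higher in both, with medians of -1.66 and -0.40. Both sets were picked by their differences with flg22, so smaller untreated medians are partly built in. Nothing is concluded from that contrast on a dependence on flg22. The untreated background was 31.2% of all genes higher and 20.2% lower in both pairs, with 0.0867% and 0.0385% at least 2-fold higher and lower. Several genes of small p, chosen after their values were seen, had nearly the same difference in both conditions. AT5G11330 had 14.2 and 13.1 FPKM in asr3-1, against 28.9 and 33.6 FPKM in WT with flg22, and 19.0 and 20.5 FPKM in asr3-1 against 34.7 and 40.9 FPKM in WT without it. The growth-restricting ubiquitin ligase gene DA2 (AT1G78420) had 32.2 and 48.6 FPKM in asr3-1 with flg22, both above both WT libraries, and a log2 difference of 0.97 with flg22 and 0.98 without. UBP20, a ubiquitin protease, differed by 1.03 with flg22 and 1.27 without, and SAC8, a phosphoinositide phosphatase family gene, by 0.89 and 0.81. The pseudogene AT2G18323 had 4.60 and 6.29 FPKM in asr3-1 with flg22 and was at 0 in WT with flg22 and in every untreated library of both genotypes. In OX9 with flg22 it had 4.52 and 9.79 FPKM, so its presence did not separate the mutant from the overexpressor.

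The genes that flg22 raises were then followed as a group. To choose them without the libraries compared, they were taken from OX9: 487 genes stood at least 2-fold higher with flg22 than without it in both OX9 repeats. In asr3-1 with flg22, 259 of these 487 genes (53.2%) were above WT in both repeats and 22 (4.52%) were below in both, where 27.3% and 23.7% of all genes were. The median difference was 0.17, with 0.09 in repeat 1 and 0.23 in repeat 2, and that of all genes was 0.01. Of the 487, 73 were higher and 2 lower at an unadjusted limma p under 0.05, and none passed after adjustment. The higher side of the comparison held more of them than the lower side: 11.8% of its 620 genes at an unadjusted p under 0.05 were raised in OX9, against 0.312% of the 642 on the lower side and 2.35% of all genes. Without flg22 the same 487 genes had a median difference of 0.12, 208 being higher and 58 lower in asr3-1 in both repeats. A difference of the same sign was thus present without treatment. The flg22 response itself had a median of 2.11 and 3.93 in asr3-1 and 2.17 and 3.80 in WT, in repeats 1 and 2. Gene by gene over the 487, the response in asr3-1 minus that in WT had a median of 0.06, with 34.5% of the genes above 0 in both repeats and 20.7% below. Over all genes the median was -0.02, with 21.8% above and 28.2% below. Of all 20753 genes, 0 passed the limma test of this difference in either direction (287 higher and 369 lower at an unadjusted p under 0.05).

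**Figure D3:**
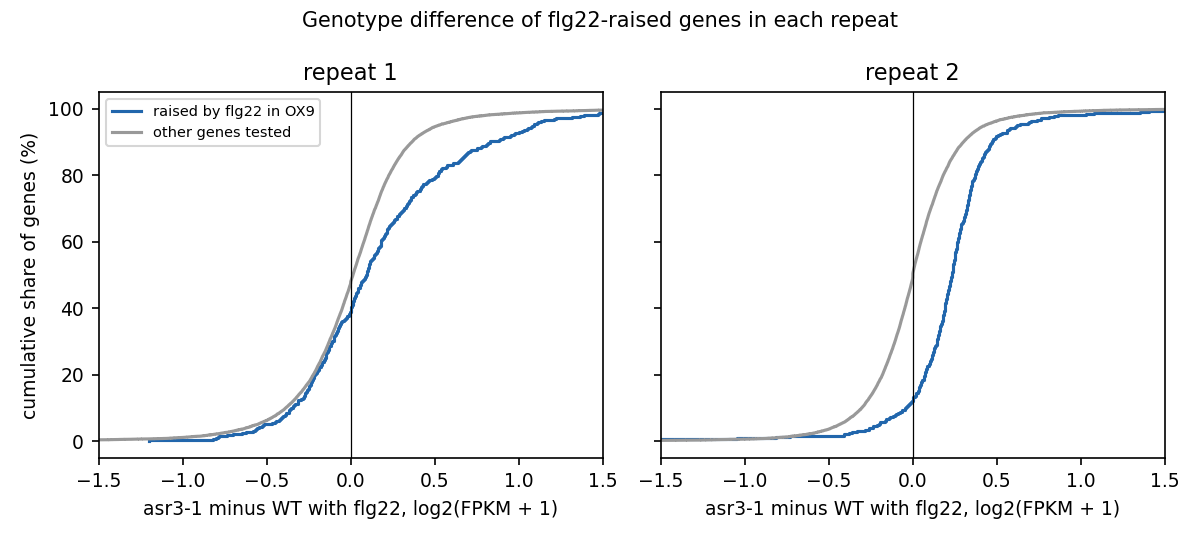
Cumulative share of genes, in percent, against the difference of asr3-1 and WT with flg22 on log2(FPKM + 1), repeat 1 on the left and repeat 2 on the right, for the 487 genes raised by flg22 in OX9 (blue) and the 20266 other genes tested (grey). The blue curve lies right of the grey one in both repeats, with medians of 0.09 and 0.23 against 0.01 and 0.00.

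Genes raised weakly in OX9 showed as large a difference as those raised strongly. Split by the size of the OX9 response, the medians were 0.23 for the 163 weakest (log2 response 1.05 to 2.13), 0.13 for the 161 in the middle and 0.17 for the 163 strongest (2.91 to 6.55). In repeat 1 they were 0.24, 0.04 and 0.02, and in repeat 2 they were 0.19, 0.24 and 0.26, so the order was not shared by the repeats. TTGAC stood in the 250 bases before the start of 68.4% of the 487 genes, in 70.7% of the 259 that were higher in asr3-1 in both repeats and in 65.8% of the other 228, against 45.4% of all genes. For GGTTAA the shares were 10.7%, 12.4%, 8.77% and 15%, and for GGTAAA 10.9%, 8.88%, 13.2% and 15%, so these forms had opposite orders between the 259 and the 228 genes. Among the 487 genes, those with the smallest p, chosen after their values were seen, included the cysteine-rich receptor kinase gene CRK13, with 12.6 and 45.5 FPKM in asr3-1 and 5.54 and 19.2 FPKM in WT (log2 1.13, SE 0.23, limma adjusted p = 0.50). Its relative CRK20 had 4.31 and 16.1 FPKM in asr3-1, against 1.89 and 9.61 FPKM in WT, and the chitinase family gene AT4G01700 268.3 and 294.9 FPKM in asr3-1 against 131.9 and 171.7 FPKM in WT. For PP2-A5, a phloem lectin family gene, the values were 173.5 and 871.0 FPKM in asr3-1 and 125.4 and 644.9 FPKM in WT, where the repeats lie far apart and the asr3-1 library exceeds its partner within each.

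The early flg22 markers, a list of 31 genes, gave a median difference of 0.12. Of them 17 (54.8%) were higher in asr3-1 in both repeats, 3 (9.68%) were lower in both and 11 differed in sign, and none passed the test. FRK1 had 71.4 and 18.5 FPKM in asr3-1, against 15.3 and 16.6 FPKM in WT (log2 1.15, SE 0.60, limma adjusted p = 0.83). Its mutant libraries lay above both WT libraries, but the excess was 2.15 in repeat 1 and 0.15 in repeat 2. MLO12, a membrane protein related to mildew susceptibility, had 189.1 and 252.1 FPKM in asr3-1, against 80.4 and 197.6 FPKM in WT. WRKY29, a factor downstream of MAP kinases, had 105.3 and 119.3 FPKM in asr3-1, against 49.2 and 98.1 FPKM in WT, and WRKY22 116.1 and 264.2 FPKM in asr3-1 against 80.5 and 221.7 FPKM in WT. PROPEP2 and PROPEP3, which encode precursors of danger peptides, had 21.9 and 23.0 FPKM and 134.6 and 510.6 FPKM in asr3-1, against 13.5 and 16.8 FPKM and 90.5 and 421.7 FPKM in WT. The peroxidase PER4 had 177.2 and 605.6 FPKM in asr3-1, against 111.8 and 435.1 FPKM in WT. Other markers were nearly level: WRKY33 had 183.8 and 1189 FPKM in asr3-1 and 212.5 and 1016 FPKM in WT, MPK3 298.9 and 1944 FPKM in asr3-1 and 393.0 and 1831 FPKM in WT, and the zinc finger gene ZAT10 170.8 and 741.3 FPKM in asr3-1 and 165.4 and 699.0 FPKM in WT. RBOHD, the NADPH oxidase of the oxidative burst, lay below WT in repeat 1 (56.6 and 76.1 FPKM in asr3-1 and WT) and above it in repeat 2 (493.4 and 414.6 FPKM). Of the 3 markers lower in both repeats, AT1G26390 was under 1 FPKM in all 4 libraries (0.557 and 0.132 FPKM in asr3-1, 0.939 and 0.869 FPKM in WT). Its difference was -0.52, and those of ACS6, an ethylene synthesis enzyme, and ERF105 were -0.21 and -0.22. The other markers fell between these: NHL10, PUB22, PUB23, BIK1, CBP60G, SARD1, MYB51, MKK4, ATL2, ERF6, ERF104, WRKY30, WRKY53, CYP81F2, JAZ1, ZAT12 and PHI-1 had mean differences of -0.12 to 0.35. Untreated, the 31 markers had a median difference of 0.18, with 15 higher and 1 lower in both pairs, and their response in asr3-1 minus that in WT had a median of -0.03.

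**Figure D4:**
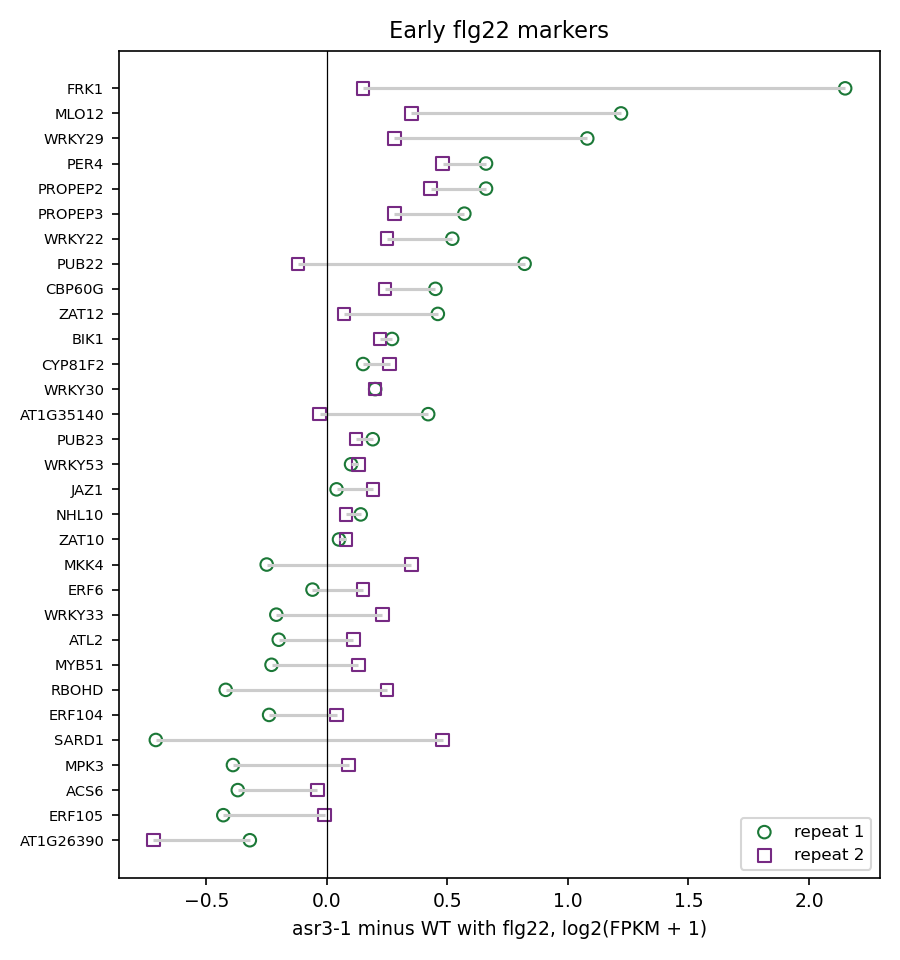
Difference of asr3-1 and WT with flg22 on log2(FPKM + 1) for each of the 31 early flg22 markers, ordered by the mean; circles are repeat 1, squares repeat 2, and lines join the repeats of a gene. FRK1 stands highest through repeat 1 (2.15 against 0.15 in repeat 2), and 11 genes have repeats on opposite sides of 0.

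Receptors and the kinases next to them had a median of 0.16, with 18 of 31 genes higher and 2 lower (LYM3 and WAK1) in both repeats. Of all genes, 27.3% were higher and 23.7% lower in both repeats, and 31.2% and 20.2% without flg22. These shares are the background for the counts of every list below. The receptor list shares BIK1, RBOHD, PUB22 and PUB23 with the early markers. FLS2 (AT5G46330), the flagellin receptor, had 15.2 and 14.1 FPKM in asr3-1, against 9.56 and 12.9 FPKM in WT (log2 0.37, SE 0.21, limma adjusted p = 0.84). Both mutant libraries lay above both WT libraries, by 0.62 in repeat 1 and 0.12 in repeat 2. IOS1, a malectin-like receptor kinase that associates with FLS2, had 68.1 and 64.5 FPKM in asr3-1, against 26.8 and 45.5 FPKM in WT (log2 0.90, SE 0.21, limma adjusted p = 0.59), with no overlap. BAK1, the coreceptor, had 44.6 and 108.3 FPKM in asr3-1, against 35.5 and 85.7 FPKM in WT. PBL1, a cytoplasmic kinase related to BIK1, had 33.0 and 43.2 FPKM in asr3-1, against 23.2 and 29.1 FPKM in WT, and BIR1, a BAK1-interacting negative regulator, 48.6 and 262.2 FPKM in asr3-1 against 38.1 and 202.5 FPKM in WT. Without flg22, PBL1 and BAK1 differed by 0.02 and -0.01, but the list had a median of 0.16 there too.

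MAP kinase cascade genes had a median of 0.14, with 16 of 25 higher and 4 lower in both repeats. Untreated, their median was 0.06, with 11 higher and 0 lower in both pairs. MPK11 had 6.41 and 132.4 FPKM in asr3-1, against 4.56 and 105.7 FPKM in WT, and MKS1, a substrate of MPK4, 42.1 and 103.0 FPKM in asr3-1 against 33.9 and 88.9 FPKM in WT. MAP3KA (MAPKKK3) had 25.2 and 26.3 FPKM in asr3-1, against 19.3 and 24.1 FPKM in WT, and MAPKKK9 (AT4G08480, MEKK2) 3.37 and 6.74 FPKM in asr3-1 against 2.69 and 5.05 FPKM in WT. MPK4 itself had 41.0 and 49.4 FPKM in asr3-1 and 38.4 and 45.3 FPKM in WT. The 4 genes lower in both repeats with flg22 were MKK9 (-0.36), MPK17, MKP2 and MPK2.

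Among 36 WRKY factors, which bind the W-box, 19 were higher and 2 lower in both repeats, with a median of 0.16. Without flg22 the median of this list was 0.09, with 15 higher and 2 lower in both pairs. WRKY11 had 188.2 and 903.0 FPKM in asr3-1, against 161.7 and 766.3 FPKM in WT, and WRKY6 33.3 and 77.6 FPKM in asr3-1 against 25.3 and 61.1 FPKM in WT. WRKY7 had 50.7 and 40.5 FPKM in asr3-1, against 32.2 and 37.8 FPKM in WT, with no overlap. WRKY55 had 1.16 and 4.63 FPKM in asr3-1 and 0.305 and 3.2 FPKM in WT, where the repeats again lie further apart than the genotypes. The 21 calcium sensors, kinases and pumps had a median of 0.02, made of -0.13 in repeat 1 and 0.23 in repeat 2. Of them 6 (28.6%) were higher and 2 (9.52%) lower in both, against 27.3% and 23.7% of all genes. CML9, a calmodulin-like protein, had 218.5 and 752.2 FPKM in asr3-1, against 194.0 and 598.0 FPKM in WT, and the members lower in both repeats were the calcium-dependent kinase gene CPK4 and the calcium pump gene ACA13, with differences of -0.20 and -0.10.

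Tryptophan and indole glucosinolate synthesis, which makes defence compounds of the cabbage family, had the highest share of genes above WT among the 20 lists: 18 of 26 genes (69.2%) were higher in both repeats and 1 was lower (TSB2), with a median of 0.21, or 0.13 in repeat 1 and 0.24 in repeat 2. TSA1 (AT3G54640), the alpha chain of tryptophan synthase, had 141.5 and 102.3 FPKM in asr3-1, against 85.5 and 79.0 FPKM in WT (log2 0.54, SE 0.12, limma adjusted p = 0.53). Both mutant libraries exceeded both WT libraries. Anthranilate synthase, the entry to the tryptophan branch, followed with both of its chains: ASA1 had 43.3 and 36.5 FPKM in asr3-1 and 26.8 and 32.2 FPKM in WT, and ASB1 61.9 and 101.8 FPKM in asr3-1 and 42.0 and 76.3 FPKM in WT. CYP83B1, which commits indole oximes to glucosinolates, had 251.0 and 378.8 FPKM in asr3-1, against 149.4 and 293.6 FPKM in WT. CYP71A12 of the camalexin branch had 12.2 and 6.13 FPKM in asr3-1 and 4.54 and 2.07 FPKM in WT, the list's member that was at least 2-fold higher in both repeats, and was picked out for that. MYB51, MYB34 and PAD3 had repeats of opposite sign. Without flg22 the list had a median of 0.16, with 13 higher and 3 lower.

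The entry enzymes of phenylpropanoid synthesis and the shikimate steps before them formed a list of 11 genes drawn up after values had been seen, so its counts support nothing by themselves. Of these, 7 were higher in asr3-1 in both repeats and 0 were lower, with a median of 0.28 with flg22 and -0.02 without. PAL1, phenylalanine ammonia-lyase, had 138.4 and 134.3 FPKM in asr3-1, against 92.7 and 83.9 FPKM in WT (log2 0.62, SE 0.09, limma adjusted p = 0.23). The 4 values did not overlap, and without flg22 they were 76.2 and 36.8 FPKM in asr3-1 and 72.3 and 40.1 FPKM in WT. C4H, the next enzyme, had 321.0 and 150.1 FPKM in asr3-1, against 230.0 and 113.7 FPKM in WT, and 4CL1, the enzyme after that, 118.2 and 152.0 FPKM in asr3-1 against 97.8 and 102.7 FPKM in WT. AT2G45300, which encodes a shikimate pathway synthase, had 37.2 and 32.4 FPKM in asr3-1 and 24.7 and 23.8 FPKM in WT. The remaining PAL and 4CL genes had values on both sides of 0, from -0.19 for PAL3 to 0.28 for PAL2. The difference of response for this list had a median of 0.21, yet no gene of it passed that test.

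Hormone lists had medians on both sides of 0. Ethylene synthesis and ERF genes had a median of 0.03, with 7 of 25 higher and 5 lower in both repeats, close to the 27.3% and 23.7% of all genes. ERF2, a factor among the 487 genes raised in OX9, had 24.4 and 26.3 FPKM in asr3-1 and 38.2 and 27.2 FPKM in WT. The 21 salicylic acid genes had a median of 0.04, with 5 higher (23.8%) and 2 lower (9.52%) in both repeats. EDS16, the isochorismate synthase that makes most salicylic acid in Arabidopsis, had 12.2 and 24.4 FPKM in asr3-1, against 7.79 and 17.8 FPKM in WT, while WRKY70 had 39.2 and 63.7 FPKM in asr3-1, against 53.7 and 77.9 FPKM in WT. In the jasmonate list 12 of 32 were higher and 4 lower, with a median of 0.10. Without flg22 the median of this list was 0.22, with 22 higher and 5 lower in both pairs. The lipoxygenase gene LOX3 had 10.5 and 218.6 FPKM in asr3-1 and 7.76 and 178.2 FPKM in WT, and its untreated difference (0.40) was of the same size as that with flg22 (0.35). The auxin response list stood on the other side: 16 of 35 genes (45.7%) were lower and 4 higher in both repeats, with a median of -0.11. IAA1, an auxin response repressor, had 9.69 and 10.3 FPKM in asr3-1, against 13.6 and 15.4 FPKM in WT (log2 -0.50, SE 0.12, limma adjusted p = 0.56), and differed by -0.08 without flg22. PIN3, an auxin exporter, was on the other side with 56.4 and 35.7 FPKM in asr3-1 and 42.5 and 33.1 FPKM in WT.

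**Figure D5:**
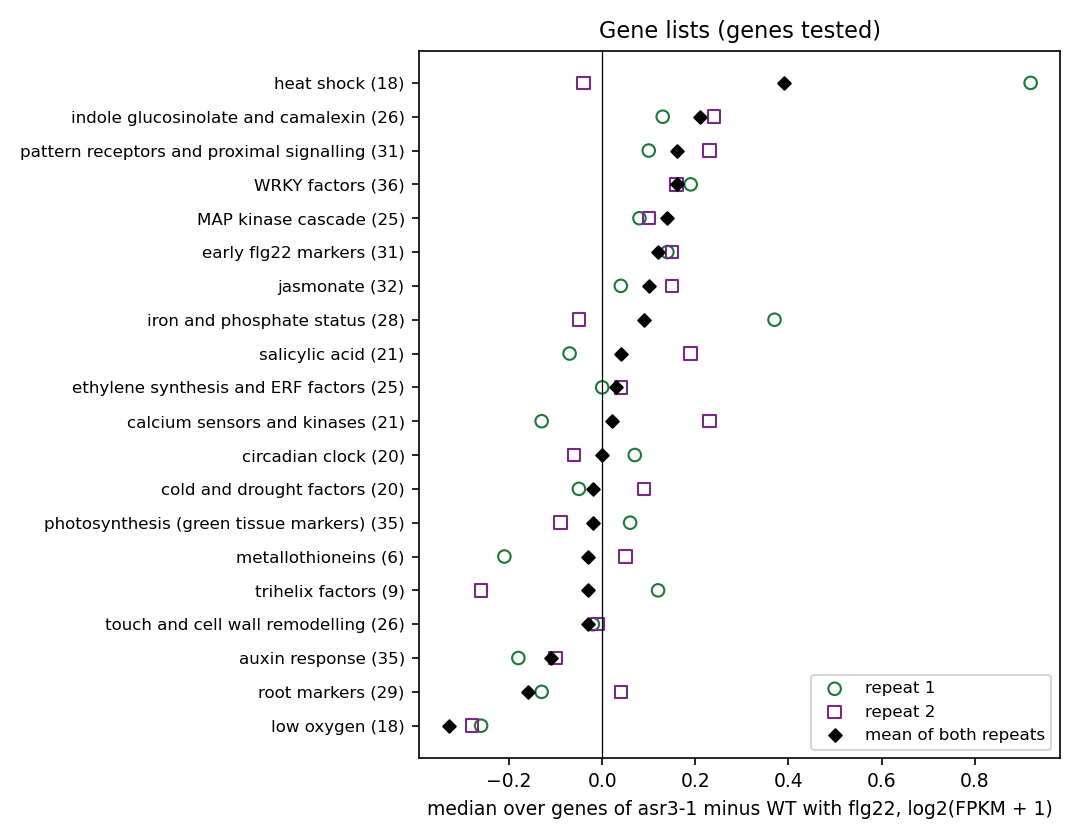
Median over the genes of each of the 20 lists of the difference of asr3-1 and WT with flg22 on log2(FPKM + 1), with the number of genes tested in brackets; circles are repeat 1, squares repeat 2 and diamonds the mean of both repeats. The early marker, receptor, MAP kinase, WRKY and indole glucosinolate lists lie at 0.12 to 0.21 in the mean. The early markers share genes with each of the other lists just named, and some are among the 487 raised in OX9, so these are not separate results. The calcium, salicylic acid and jasmonate lists lie at 0.02, 0.04 and 0.10. The heat shock list has repeats at 0.92 and -0.04, and the low oxygen list is at -0.33.

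The heat shock and low oxygen lists had the medians furthest from 0 among the 20. Heat shock genes had a median of 0.39, made of 0.92 in repeat 1 and -0.04 in repeat 2, with 9 of 18 higher in both repeats and 3 lower. The small heat shock protein gene AT5G12030 had 46.5 and 2.37 FPKM in asr3-1, against 16.2 and 0.679 FPKM in WT, and HSP90.1 82.9 and 6.66 FPKM in asr3-1 against 31.9 and 5.82 FPKM in WT. Hsp70-2, a chaperone gene, had 39.5 and 14.7 FPKM in asr3-1, against 17.3 and 12.5 FPKM in WT. Summed over the list, asr3-1 had 548.6 and 161.5 FPKM and WT 306.9 and 157.4 FPKM, so the excess lay in repeat 1. Low oxygen genes had a median of -0.33, with 12 of 18 lower (66.7%) and 1 higher in both repeats, and -0.26 and -0.28 in repeats 1 and 2. PCO1, an oxygen-sensing cysteine oxidase, had 1.66 and 2.58 FPKM in asr3-1, against 5.8 and 4.27 FPKM in WT (log2 -0.96, SE 0.24, limma adjusted p = 0.60). In OX9 with flg22 it had 1.88 and 1.75 FPKM, so its low level did not separate the mutant from the overexpressor. AT4G10270 (WIP4), a wound-responsive family gene of the same list, had 8.62 and 9.54 FPKM in asr3-1, against 10.4 and 14.4 FPKM in WT, and was called lower in OX9 than in WT with flg22 (log2 -1.83, limma adjusted p = 0.038), and these comparisons share the WT libraries. LBD41 had 19.7 and 38.2 FPKM in asr3-1, against 28.4 and 47.8 FPKM in WT, and ADH1, the alcohol dehydrogenase of fermentation, 5.70 and 1.18 FPKM in asr3-1 against 7.04 and 1.57 FPKM in WT. Many of these genes are low, and with only genes of 5 FPKM or more the median was -0.09. The exception, AlaAT1, an alanine aminotransferase, had 96.7 and 239.8 FPKM in asr3-1 and 73.3 and 211.2 FPKM in WT.

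The remaining lists had medians of -0.16 to 0.09. Cold and drought factors had a median of -0.02 (6 of 20 higher and 6 lower in both repeats, with medians of -0.05 and 0.09 in repeats 1 and 2), clock genes 0.00 (6 of 20 and 6), touch and cell wall genes -0.03 (5 of 26 and 6) and metallothioneins -0.03 (1 of 6 and 1). The clock genes LHY and CCA1 had 80.9 and 12.9 FPKM and 68.8 and 28.6 FPKM in asr3-1, against 106.6 and 16.3 FPKM and 79.9 and 33.4 FPKM in WT, and were lower in both untreated pairs as well. XTH17, a wall-remodelling enzyme, had 21.9 and 48.7 FPKM in asr3-1, against 34.2 and 65.7 FPKM in WT (log2 -0.52, SE 0.10, limma adjusted p = 0.45). Iron and phosphate genes had a median of 0.09 (7 of 28 higher and 4 lower), with 0.37 in repeat 1 and -0.05 in repeat 2. FER1, an iron storage ferritin, had 137.7 and 207.4 FPKM in asr3-1, against 269.5 and 307.5 FPKM in WT, and likewise 165.3 and 247.5 FPKM in asr3-1 against 330.7 and 341.0 FPKM in WT without flg22. Photosynthesis genes had a median of -0.02 (6 of 35 higher and 9 lower) and root markers -0.16 (3 of 29 higher and 6 lower), with root medians of -0.13 and 0.04 in repeats 1 and 2. The part of tissue make-up in the list differences was not tested.

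OX9 with flg22 served as the counterpart in which ASR3 is in excess. The same model called 4 genes higher (0.0193%) and 4 lower (0.0193%) in OX9 than in WT with flg22, with ASR3 (log2 5.83) the largest of them, so the model did make calls at this number of libraries. The number of calls moved with the setting: 1 higher and 0 lower without the block or with a block common to both treatments. It was 0 and 0 with a pseudocount of 0.1. With a 5 FPKM filter it was 5 and 3, under quantile normalization 6 and 4, and scaled to the 75th percentile 5 and 3. Fewer calls were left when a single asr3-1 or WT library was left out. No OX9 library was left out, so the dependence of the calls on each of those was not tested. MIR848 and AT2G18323 were among the 8 calls, in the direction they had in asr3-1. Both comparisons share the WT libraries with flg22, and MIR848 has its only reads there.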

How the data were processed

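RNA sequencing libraries were TruSeq with 100 nt single-end reads, per the labels and the series' design text. Whether reads keep their strand is not stated, which leaves overlapping genes mixed. Further named genes, such as MLO12, WRKY29 and BAK1, also overlap a gene on the other strand. Per the file headers the authors deposited FPKM, with no counts. Their tools, per the submitters' processing notes and with no roles given, were Cuffdiff 2.2.1, TopHat2 2.0.12, cutadapt 1.0 and bcl2fastq 1.8.4, and the build TAIR10. From the table of all samples, 693 lines without an identifier and 88 identifiers listed more than once (176 lines) were left out. Names, positions and promoters are from RefSeq's TAIR10.1 annotation, which matched 32722 of 33197 identifiers by locus tag.

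On log2(FPKM + 1), limma 3.58.1 (R 4.3.3) was fitted to all 12 libraries, which share 1 estimate of spread, with 6 group means, a repeat block within each treatment (4 residual degrees of freedom), a variance trend and robust moderation. P-values are 2-sided, adjusted by Benjamini-Hochberg over 20753 genes, with a threshold of 0.05. The block was used because same-numbered libraries deviate together (r of deviations 0.805 for the flg22 groups of asr3-1 and WT, 0.698 to 0.805 over all pairs of groups within a treatment). The model was tested on data simulated from itself with independent normal noise, where 200 genes above about 5 FPKM were changed per run. Replicates are pools, so p-values measure the spread between pools.

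Members, the 20 lists (541 names, 514 matched, names shared by several loci being set by locus) and the tests were chosen with earlier results of these data known, and the phenylpropanoid list was added after values were seen. Named are ASR3, the 12 highest and 12 lowest genes at least 2-fold different in both repeats with a mean of at least 5 FPKM (6 on the lower side), all early markers and up to 4 members of each list by smallest p; any other gene named was chosen after its values were seen. Alternatives were other blocks, sample sets, pseudocounts, filters, scalings and left-out libraries. FPKM keeps no read total, so counting errors could not be given. Motifs were searched on both strands.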

Additional observations from a re-analysis of the deposited data

Results flagged for a closer look

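MIR834 drew attention because asr3-1 stood above WT in both flg22 pairs and below it in both untreated pairs. The log2 difference was 1.34 with flg22 and -0.30 without, which are 1.65 apart. The test of that difference in limma gave an unadjusted p of 4e-05 and an adjusted p of 0.74, so it did not pass over all genes. Reads of the host gene AT5G08230 on the same strand cannot be told apart from it.

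AT2G35733, a short gene that overlaps AT2G35736, showed the same pattern. Its values in OX9 also varied, at 13.9 and 40.8 FPKM with flg22 and 0.0164 and 34.3 FPKM without. In asr3-1 with flg22 it had 24.2 and 21.5 FPKM, against 0 and 6.29 FPKM in WT with flg22. Without flg22 it had 19.1 and 28.7 FPKM in asr3-1, against 61.9 and 40.0 FPKM in WT. The difference was 3.14 with flg22 and -1.06 without, 4.2 apart, with an unadjusted limma p of 0.14 and an adjusted p of 1.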

How the results depend on the processing

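Between asr3-1 and WT with flg22, the count of genes past the test was 0 in both directions under every alternative block, sample set, pseudocount, filter and scaling; with no replicate block it was 0 and 0. That model found 0% of 2-fold changes in data simulated with a block, so its 0 says little. In OX9 against WT with flg22, 1 gene was higher and 0 lower with no replicate block and 1 and 0 with a block common to both treatments. With the block kept and the flg22 libraries alone, that comparison gave 2 and 0. It gave 0 and 0 with a pseudocount of 0.1, and 3 higher and 1 lower without a filter. With a 5 FPKM filter it gave 5 and 3, under quantile normalization 6 and 4, and at the 75th percentile 5 and 3. Untreated, asr3-1 against WT gave 1 higher without OX9. Over fits that left out 1 library, asr3-1 against WT ranged over 0 to 2 higher and 0 to 6 lower with flg22 and 0 to 4 higher and 0 to 5 lower without it. The difference of response ranged over 0 to 5 higher and 0 to 4 lower, and OX9 against WT over 0 to 2 and 0 to 1. No OX9 library was left out in these fits, and a lone library is there assumed to vary like other groups. Genes at least 2-fold higher in both repeats numbered 69 with a pseudocount of 0.1 and 19 with a 5 FPKM filter, and lower ones 67 and 8; single repeats gave 170 to 297 higher and 131 to 230 lower. List medians kept their sign under other pseudocounts, filters and scalings except ethylene (-0.01 under quantile normalization and 0.01 at the 75th percentile), calcium (-0.01 at the 75th percentile), cold (0.07 at 5 FPKM) and clock genes (-0.02 to 0.02), and several turned in single repeats. The median of the 487 genes raised by flg22 was 0.15 to 0.18 under these and 0.09 to 0.23 in single repeats. Early markers gave 0.14 at 5 FPKM, 0.10 under quantile normalization and 0.09 at the 75th percentile; MAP kinases 0.12 under each scaling; WRKY factors 0.14 at the 75th percentile; low oxygen -0.39 with a pseudocount of 0.1 and -0.09 at 5 FPKM; touch genes -0.03 and, at the 75th percentile, -0.04. Single repeats gave 0.14 to 0.15 for early markers, 0.08 to 0.10 for MAP kinases, 0.16 to 0.19 for WRKY factors, 0.00 to 0.04 for ethylene, -0.05 to 0.09 for cold, -0.28 to -0.26 for low oxygen, -0.02 to -0.01 for touch, -0.18 to -0.10 for auxin and -0.13 to 0.04 for root markers. The cause of these shifts was not tested. Read depth limits the genes near 1 FPKM.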

Other observations

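Further genes were picked after their values were seen. LSU3, a gene that responds to low sulfur, had 19.8 and 2.08 FPKM in asr3-1 with flg22, against 36.1 and 4.14 FPKM in WT with flg22 (log2 -0.79, SE 0.14, limma adjusted p = 0.35). AKN2, an adenosine phosphosulfate kinase that supplies sulfate groups for glucosinolates, had 116.7 and 111.4 FPKM in asr3-1, against 80.8 and 67.7 FPKM in WT (0.62, SE 0.10, adjusted p = 0.32), and differed by 0.08 without flg22. YLS5, a DJ-1 family gene, had 70.5 and 46.7 FPKM in asr3-1 and 36.0 and 31.8 FPKM in WT, with 24.7 and 18.3 FPKM in asr3-1 and 23.2 and 18.4 FPKM in WT without flg22. MYB87, an R2R3 MYB factor, had 3.34 and 4.65 FPKM in asr3-1 and 0.496 and 1.22 FPKM in WT. BGLU21, a beta-glucosidase of roots, had 115.5 and 129.6 FPKM in asr3-1, against 188.8 and 194.6 FPKM in WT, and 109.6 and 141.5 FPKM in asr3-1, against 155.2 and 187.7 FPKM in WT, without flg22.

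The 27 genes at least 2-fold lower with flg22 in both OX9 repeats had a median difference of 0.18 between asr3-1 and WT with flg22, made of 0.47 in repeat 1 and -0.27 in repeat 2, with 5 higher and 2 lower in both.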
